A study of Homo sapiens with 8 samples.

Results

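The polyamine synthesis and antizyme genes were taken from the deposited comparison of translation efficiency by gene name, as the rows named ODC1, AMD1, SRM, SMS, OAZ1, OAZ2, AZIN1 or SAT1. Of these 8 genes, 7 had a row each among the 12109 transcripts, and SMS was not analysed here. The study used hepatic stellate cells of human origin, which make scar matrix in the liver once activated, labelled as a cell line and grown in medium with serum. Control cells were labelled WT and received the silencing RNA dsi-control; knockdown cells were labelled LARP6 kd and received dsiLARP6, directed against LARP6, a La-related protein known for binding collagen messages. Each condition had 2 RNA-seq libraries and 2 ribosome profiling libraries, 8 in all, and the labels do not say whether the replicates were separate cultures, so the p-values may measure technical spread only. Cycloheximide was applied before lysis in ribosome profiling, which sequences the RNA fragments that ribosomes shield from nuclease, and translation efficiency is footprints relative to RNA.

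Polyamines are small positively charged molecules that cells need for growth and that bind RNA and ribosomes. Ornithine decarboxylase, encoded by ODC1, makes putrescine, and the synthases encoded by SRM and SMS extend it to spermidine and spermine with aminopropyl groups supplied by S-adenosylmethionine decarboxylase, the product of AMD1. Much of the control in this pathway is known to run through translation: short frames in the leaders of several messages hold back the main frame, and antizymes, which deliver ornithine decarboxylase to the proteasome, are made only when ribosomes shift frame on the antizyme message, a step that polyamines promote. AZIN1 encodes an antizyme inhibitor that resembles ornithine decarboxylase but has no enzyme activity, and SAT1 encodes the acetyltransferase that starts polyamine breakdown and export.

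The frameshift sites are shown because they set whether a footprint lies in the first or the second frame of an antizyme message. The OAZ1 row matched a transcript on chromosome 19 (2269520 to 2273490, plus strand, GRCh38), and the OAZ2 row matched one on chromosome 15 (64687573 to 64703281, minus strand). In both matched transcripts GENCODE leaves out 1 base inside the coding part, at position 2271443 for OAZ1 and 64691515 for OAZ2, which joins both frames into one. The base is present in other annotated transcripts of the same genes, from which the windows below were read. In capitals are the last codon of the first frame and the stop codon that follows it; the omitted base is the first base of that stop codon.
OAZ1, chr19:2271419-2271469, plus strand: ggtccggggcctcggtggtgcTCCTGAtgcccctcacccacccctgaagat
OAZ2, chr15:64691489-64691539, minus strand: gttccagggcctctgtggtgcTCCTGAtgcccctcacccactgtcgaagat
The windows shared 44 of 51 bases (86.3%), including an unbroken run of 27 bases across the stop codon. The first frame of OAZ1 spans 68 codons and that of OAZ2 32 codons, of 228 and 189 codons in the joined coding parts. Reads from both frames would count toward 1 value per gene, and the sources used here do not give which part of a transcript was counted, so the efficiencies of OAZ1 and OAZ2 do not measure the rate of frameshifting.

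Upstream frames are shown for the 3 members with the smallest p-values, ODC1, AMD1 and SAT1. In capitals are the frames, from the ATG to the stop codon where the frame is printed whole, read from the matched GENCODE transcripts on GRCh38.
AMD1, chr6:110874794-110874818, plus strand: gtATGGCCGGCGACATTAGCTAGcg
ODC1, first frame, chr2:10448351-10448377, minus strand: ATGGCGACCCGCCGGTGCTATAAGTAG
ODC1, second frame, its first 30 bases, chr2:10448125-10448154, minus strand: ATGGGGCTGGCCTGCGGCGCCTGGGCGCTC
SAT1, first frame, chrX:23783233-23783251, plus strand: tcATGGTGCCAGCCTGAct
The AMD1 frame is 21 bases long and starts at base 27 of a leader of 336 bases. The ODC1 frames span 27 and 33 bases in a leader of 511 bases, and the first SAT1 frame spans 15 bases in a leader of 179 bases. A second SAT1 frame of 90 bases runs over the main start. Letters cannot show whether a frame is translated in these cells, and the leader used in the cells may be shorter than the annotated one.

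**Figure D1:**
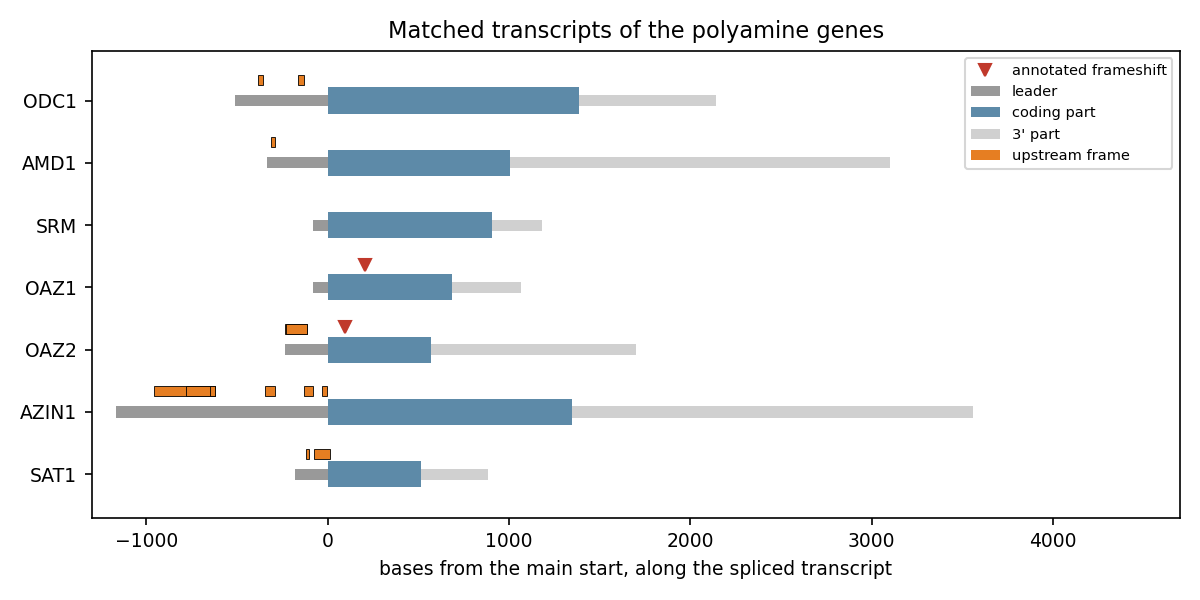
Matched transcripts of the 7 measured genes, drawn to scale in bases from the main start, with the leader, coding part and 3′ part as bars, upstream frames as orange boxes and annotated frameshifts as triangles. The AZIN1 leader is the longest, at 1164 bases, and the leaders of SRM (81 bases) and OAZ1 (79 bases) are the shortest and hold no upstream frame.

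Of the 7 matched transcripts, 5 held at least 1 upstream ATG, against 49.2% of 10459 matched protein-coding transcripts with an annotated start. ATG was searched on the transcript strand only. AZIN1 had 6 upstream ATGs in a leader of 1164 bases, ODC1, OAZ2 and SAT1 had 2 each, AMD1 had 1, and SRM and OAZ1 had none. The median over the 7 was 233 leader bases, against 187 over all protein-coding transcripts. As a background to the changes below, the median log2 change in the authors' deposited table was 0 for the 5150 protein-coding transcripts with an upstream ATG and 0.04 for the 5309 without one. Their median derived control log2 efficiencies were −0.17 and 0.08.

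None of the 7 measured genes passed 0.05 after adjustment, and the largest differences belonged to both decarboxylases, in opposite directions. The authors' deposited table lists a log2 change in efficiency, knockdown over control, of −0.87 for ODC1 and 0.98 for AMD1. SAT1, at −0.45 in the authors' deposited table, was the other member with an unadjusted p under 0.05. The antizymes OAZ1 and OAZ2, the antizyme inhibitor AZIN1 and the spermidine synthase SRM lay between −0.17 and 0.22 in the authors' deposited table. None of the members (0 of 7) was called in either direction in the authors' deposited table, where 266 of the 12109 transcripts (2.20%) were called, 130 higher (1.07%) and 136 lower (1.12%). The count of members was also 0 at an adjusted p of 0.10 (2.81% of all transcripts), by the second method's p alone (2.82%) and among protein-coding transcripts only (2.35%), all from the authors' deposited table. By the first method's p alone 1 member, ODC1, was called lower and 0 were called higher. Of all transcripts, 3.77% were called by that method in either direction and 2.17% were called higher. Unadjusted, 3 of the 7 (1 higher, 2 lower) had a p under 0.05 in the authors' deposited table, against 10.3% of all transcripts. The median of the 7 log2 changes was −0.14, against 0.02 over all transcripts of the authors' deposited table. Above 0 lay 3 of the 7, against 6146 of the 12109 transcripts.

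The table holds 1 value per transcript and none per library, so no spread between replicates, depth or standard error stands beside these values. The efficiencies are relative: in the authors' deposited table the knockdown's median log2 value over all transcripts was 0.0078, so a shift common to every message could not be seen.

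Levels are given as log2 efficiencies of the control, derived here by subtracting the second method's log2 change from the deposited knockdown value, and of the knockdown, as deposited. SAT1 had the highest efficiency of the 7 genes in both conditions, 1.37 in the control and 0.92 in the knockdown of the authors' deposited table. SRM followed at 0.28 and 0.50, AZIN1 at −0.19 and −0.33, and OAZ2 at −0.44 and −0.60, control first and then the knockdown value of the authors' deposited table. OAZ1, the first of the antizymes, stood at −0.98 and −0.85, the second of these from the authors' deposited table. SAT1, SRM, AZIN1 and OAZ2 thus held places 1 to 4 in both conditions. Whether neighbours in this order differ could not be tested without values per library.

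**Figure D2:**
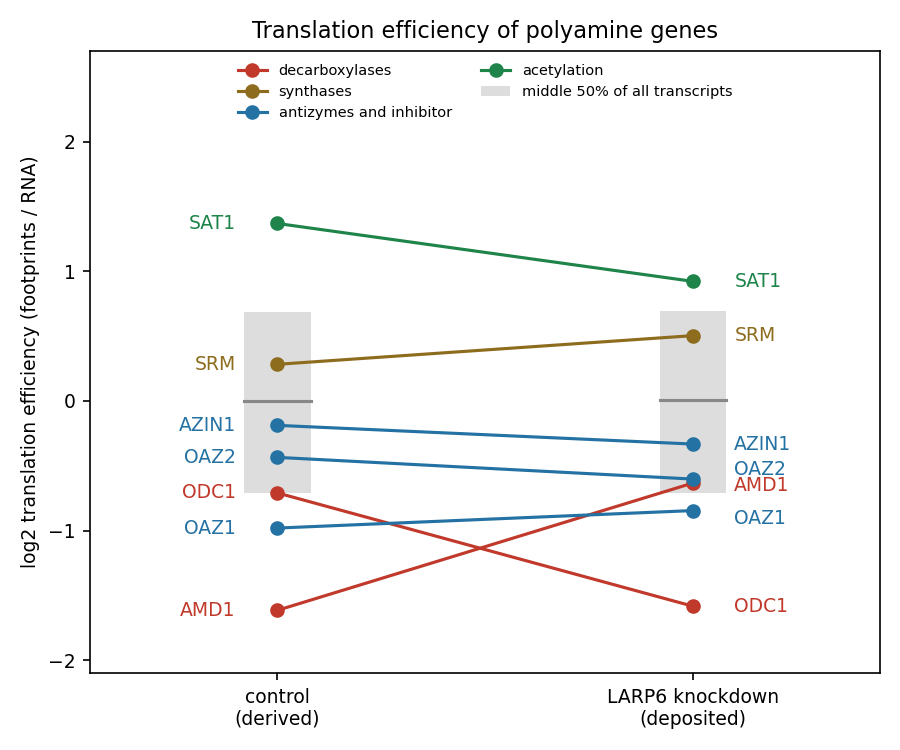
Log2 translation efficiency (y axis) of the 7 genes in the control and the LARP6 knockdown (x axis); each line joins a gene's single value per condition, grey bars span the 25th to 75th percentile of all transcripts and grey lines are their medians. ODC1 and AMD1 cross, with ODC1 at −0.71 and AMD1 at −1.62 in the control, and −1.58 and −0.63 in the knockdown.

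ODC1, the first enzyme of the pathway (chromosome 2, 10439968 to 10448504, minus strand, GRCh38), had a derived control log2 efficiency of −0.71 and a knockdown value of −1.58 in the authors' deposited table. Among all transcripts its efficiency stood at percentile 25 in the control and 8.32 in the knockdown. The authors' deposited table puts this difference, 1.83-fold downward, at p = 0.00539 with an adjusted p of 0.155. Absolute log2 changes at least as large were listed for 14.1% of transcripts in the authors' deposited table. Of 772 transcripts whose absolute change lay within 0.1 of that of ODC1, 49 (6.35%) were called in the authors' deposited table. The first of the 2 methods in the authors' deposited table gave ODC1 a p of 0.00123, which is 0.0361 after Benjamini-Hochberg adjustment over all transcripts, where 3.77% of transcripts pass. The second method gave p = 0.00539 in the authors' deposited table, adjusted here to 0.132. The call of ODC1 therefore rested on which method's p was taken, while the log2 changes of the methods were −0.88 and −0.87 in the authors' deposited table.

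AMD1, whose enzyme supplies the aminopropyl groups (chromosome 6, 110874770 to 110895713, plus strand), had a derived control log2 efficiency of −1.62 and a knockdown value of −0.63 in the authors' deposited table. It moved from percentile 7.90 of all transcripts to percentile 27.5, the reverse of the places of ODC1. In the authors' deposited table the difference was 1.97-fold upward, with p = 0.0253 and an adjusted p of 0.354. Absolute log2 changes at least as large as that of AMD1 were listed for 11.0% of transcripts. The methods differed more for AMD1 than for ODC1: the first gave p = 0.00225 in the authors' deposited table, or 0.056 when adjusted here, and the second gave 0.0253. Of 624 transcripts with an absolute change within 0.1 of that of AMD1, 39 (6.25%) were called in the authors' deposited table. GENCODE names 4 AMD1 pseudogenes, and the sources used here do not give how reads with several mapping places were treated, so the AMD1 value is uncertain. Of these pseudogenes only AMD1P3 had a row, at −0.93 in the authors' deposited table (log2 change, p = 0.662), opposite in sign to AMD1 and not called.

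The order of both decarboxylases was reversed between the conditions. The log2 efficiency of ODC1 was 0.91 above that of AMD1 in the derived control values and 0.95 below it in the knockdown values of the authors' deposited table. Neither gene's change passed the adjusted threshold, and the difference between them was not tested, because it needs values per library.

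**Figure D3:**
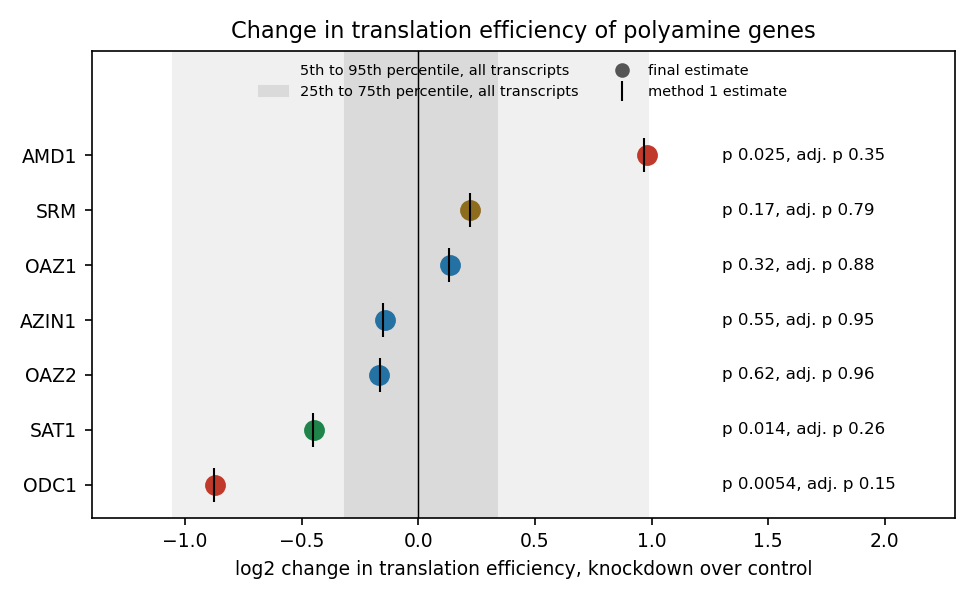
Log2 change in translation efficiency (x axis) of each measured gene (y axis), with circles for the authors' final estimate, black ticks for their first method and shading for the 5th to 95th and 25th to 75th percentiles of all transcripts. ODC1 at −0.87 and AMD1 at 0.98 lie on either side of 0, both within the 5th to 95th percentile of all transcripts. The 3 antizyme and inhibitor genes lie within 0.17 of 0.

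SRM, the spermidine synthase (chromosome 1, 11054589 to 11060024, minus strand), stood at 0.22 in the authors' deposited table (log2 change), with p = 0.175 and an adjusted p of 0.787. Its efficiency stood at percentile 60.4 of all transcripts in the control and 68.4 in the knockdown. GENCODE names 2 SRM pseudogenes, so this value is uncertain too. SMS, the spermine synthase, was not analysed here.

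The antizyme system showed the smallest differences among the 7 genes. OAZ1, which targets ornithine decarboxylase for degradation, was at 0.13 (log2 change) in the authors' deposited table (p = 0.322, adjusted p = 0.884). For OAZ2, a second antizyme, the authors' deposited table lists −0.17 (p = 0.62, adjusted p = 0.964). AZIN1, which binds antizymes and frees ornithine decarboxylase (chromosome 8, 102826357 to 102864737, minus strand), was listed at −0.14 in the authors' deposited table (p = 0.553, adjusted p = 0.953). OAZ1 lay on the side of AMD1 and SRM, and OAZ2 and AZIN1 on that of ODC1 and SAT1. No transcript with a change within 0.1 of the size of any of these 3 was called in the authors' deposited table (0 of 3858 for OAZ1). Calls set no minimum change, and the smallest absolute log2 change of any called transcript in the authors' deposited table was 0.34. The windows around these 3 genes end below that value, so their counts of 0 follow from it. Exons of the OAZ1 transcript overlap AC005258.1 on the same strand and JSRP1 on the other strand. Those of OAZ2 overlap AC100830.1 and those of AZIN1 overlap AZIN1-AS1, both on the other strand, and the sources used here do not give whether counting used strand. The overlap of OAZ1 with AC005258.1 would remain with either kind of counting.

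SAT1, the spermidine and spermine acetyltransferase (chromosome X, 23783173 to 23786226, plus strand), was at −0.45 (log2 change) in the authors' deposited table, with p = 0.0136 and an adjusted p of 0.259. Its efficiency was high among all transcripts in both conditions, at percentile 90.2 in the control and 81.3 in the knockdown. Of 2162 transcripts with an absolute change within 0.1 of that of SAT1, 39 (1.80%) were called in the authors' deposited table. Here the methods were close, with p = 0.0116 and 0.0136 in the authors' deposited table.

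**Figure D4:**
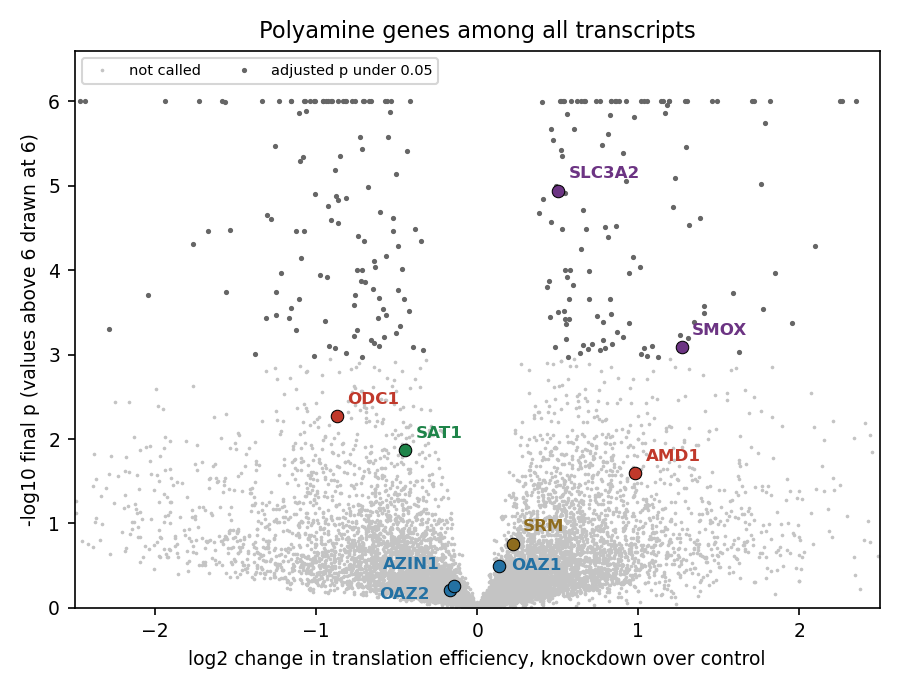
Log2 change in translation efficiency (x axis) against −log10 of the authors' final p (y axis, values above 6 drawn at 6) for all transcripts except 80 beyond 2.5 on either side; coloured points are the 7 genes and the 2 called pathway genes, and dark grey points are called transcripts. ODC1, SAT1 and AMD1 lie below the called transcripts, and SMOX and SLC3A2 lie among them.

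Among other genes of polyamine metabolism, those for spermine oxidase and for a subunit of an amino acid transporter rose. Of 31 listed genes 25 were measured, and the calls of the authors' deposited table were 2 that rose and 0 that fell, where 1.07% of all transcripts were called higher and 1.12% lower. The median log2 change of the 25 was 0.22 in the authors' deposited table, against 0.02 over all transcripts. Above 0 lay 18 of the 25, against 6146 of the 12109 transcripts. Unadjusted, 6 of the 25 had a p under 0.05 in the authors' deposited table, 5 of them higher (5.46% of all transcripts) and 1 lower (4.83%).

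SMOX, which oxidizes spermine back to spermidine (chromosome 20, 4148779 to 4187747, plus strand), rose 2.41-fold in the authors' deposited table, a log2 change of 1.27 (p = 0.000817, adjusted p = 0.0399). Its derived control log2 efficiency was −0.58 and its knockdown value 0.70 in the authors' deposited table, a move from percentile 29.1 to percentile 75 of all transcripts. The SMOX leader of 225 bases holds no upstream ATG, no other annotated gene overlaps its exons, and GENCODE names no SMOX pseudogene. Both methods called SMOX, with p = 1.71e-05 and 0.000817 in the authors' deposited table, adjusted here to 0.00117 and 0.0337. The other measured genes of polyamine breakdown, PAOX and SAT2, had log2 changes of 1.22 (p = 0.3) and 0.45 (p = 0.263) in the authors' deposited table. PAOX, an oxidase of acetylated polyamines, thus had a change of nearly the size of SMOX without being called.

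SLC3A2, the heavy chain of amino acid transporters that has also been linked to polyamine transport, rose 1.42-fold in the authors' deposited table, a log2 change of 0.50 (p = 1.15e-05, adjusted p = 0.00115). This called difference was smaller than the uncalled ones of ODC1 and AMD1. Of both called pathway genes, only SLC3A2 passed an adjusted p of 0.01, as 0.710% of all transcripts did in the upward direction, and only SMOX was called and at least 2-fold higher, as were 0.429% of all transcripts in the authors' deposited table. The other transport genes lay between −0.11 for SLC18B1, a vesicular polyamine transporter, and 0.20 for ATP13A2, a lysosomal polyamine exporter, in the authors' deposited table.

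**Figure D5:**
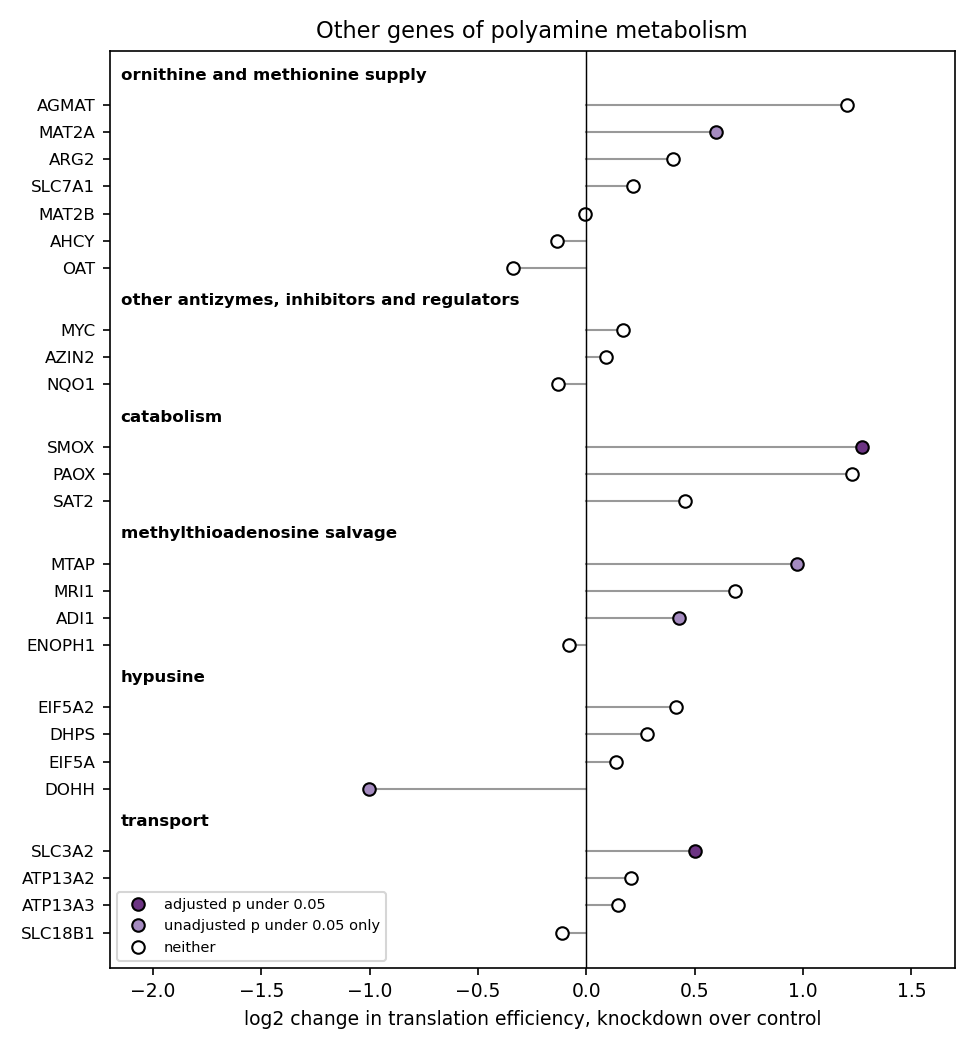
Log2 change in translation efficiency (x axis) of the 25 other measured genes of polyamine metabolism (y axis), grouped by role; dark points passed an adjusted p of 0.05, light purple points only an unadjusted p of 0.05. SMOX and SLC3A2 are the 2 dark points, and DOHH at −1.0 is the farthest below 0.

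None of the 7 measured genes of ornithine and methionine supply was called in the authors' deposited table, where 2.20% of all transcripts were called. In the authors' deposited table they ranged from −0.34 for OAT, the ornithine aminotransferase (adjusted p = 0.892), to 1.20 for AGMAT, related to agmatine hydrolases (adjusted p = 0.773). MAT2A, a synthetase of S-adenosylmethionine, was the gene of this group with an unadjusted p under 0.05, at 0.60 in the authors' deposited table (p = 0.0113, adjusted p = 0.235). As for ODC1, its call rested on the method: the first gave MAT2A p = 0.0013 in the authors' deposited table, adjusted here to 0.0375, and the second 0.0113, adjusted here to 0.209. By the first method alone the pathway genes called higher were thus 3, against 2.17% of all transcripts of the authors' deposited table. Methylthioadenosine is the by-product of the synthases. Its salvage genes ranged from −0.08 for ENOPH1 to 0.97 for MTAP, the phosphorylase that cleaves it (p = 0.0214, adjusted p = 0.324), in the authors' deposited table. Of these salvage genes 0 of 4 were called, against 2.20% of all transcripts of the authors' deposited table. MTAP overlaps other annotated genes and has 2 named pseudogenes, of which MTAPP2 had a row, at 0.07 (p = 0.926) in the authors' deposited table.

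Spermidine is also the donor for hypusine, a modified lysine of the translation factor encoded by EIF5A. Of 4 hypusine genes 0 were called in the authors' deposited table, against 2.20% of all transcripts. DOHH, the hydroxylase of the last step, was at −1.0 (log2 change) in the authors' deposited table (p = 0.0154, adjusted p = 0.279), from a derived control log2 efficiency of 0.32. At the other end the authors' deposited table has EIF5A2, a second form of the factor, with 0.41 (adjusted p = 0.958). Regulators beside the members lay near 0, from −0.13 for NQO1, which is known to bind and stabilize ornithine decarboxylase, to 0.17 for MYC, a transcription factor that drives ODC1, in the authors' deposited table. AZIN2, the second antizyme inhibitor, was at 0.09 in the authors' deposited table (adjusted p = 0.99).

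For LARP6 itself the authors' deposited table has 0.07 (adjusted p = 0.981), and as an efficiency this value cannot show whether the message was depleted. Of 10 listed markers of stellate cells and myofibroblasts, 9 had a row, DES being the exception, as had 1 of 4 markers of quiescent stellate cells. Rows were also present for 2 of 5 hepatocyte, 1 of 4 endothelial, 2 of 5 leukocyte and Kupffer cell and 3 of 5 biliary and epithelial markers. A row shows only that a transcript was compared, not its level, so the part of other cells in these values was not tested.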

How the data were processed

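Members and gene lists were chosen with earlier results of these data known. Per the file headers, the deposited table gives 12109 transcripts a log2 efficiency in the knockdown, 2 methods' log2 changes in translation efficiency, and a final one. It also gives p-values: the authors deposited as final the less significant of both methods (checked for 12109 rows at a relative tolerance of 1e-09), with a Benjamini-Hochberg adjusted p-value. Cutadapt, Bowtie and the builds hg38 and GRCh38 are named, per the submitters' processing notes; the sources used here do not give how reads were counted or efficiencies compared. Without values per library, no count model could be run and depth is unknown.

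Calls use the authors' adjusted p of 0.05. Each method's p was also adjusted here over all transcripts. Each row's gene name comes with 6 closing digits of a transcript identifier, which matched GENCODE release 29 (GRCh38) for 11581 rows and for all 32 rows used here. Named were the 8 genes, called pathway genes, the largest rise and fall per role, and LARP6; ATP13A2, PAOX, SAT2, AZIN2, MAT2A, the pseudogenes and the overlapping genes were named after their values were seen. The planned protein comparison was not run. Adjustment was tested on simulated data. Python 3.11.15, numpy 2.4.6, pandas 2.3.3 and matplotlib 3.10.9 were used.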

Additional observations from a re-analysis of the deposited data

How the results depend on the processing

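No paired analysis was possible because the table gives no value per library, and leaving out replicates could not be run for the same reason. The median log2 change of the 7 genes stayed within 0.1 of −0.14 by either method and after centring on all transcripts. With the first method's p alone, 1 member (ODC1) was called lower in place of 0, and 3 pathway genes higher in place of 2 (MAT2A added; 2.17% of all transcripts). Pathway genes called higher numbered 1 in place of 2 at an adjusted p of 0.01 (SLC3A2; 0.710% of all transcripts) and 1 with a minimum of 2-fold (SMOX; 0.429%). The 7 members, the called pathway genes and the largest rise and fall per role were followed through the settings, and none of these reversed. LARP6 and the genes named after their values were seen were not among them. For the 7 members the log2 changes of the methods differed by at most 0.013, and centring moved each value by 0.015. A reversal of sign was therefore hardly possible in these settings. The other counts kept within 1.5 times at an adjusted p of 0.10, with the second method alone and among protein-coding transcripts only. Depth is unknown, so whether any of these genes was too shallow to be called cannot be said.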
